A study of Mus musculus with 17 samples.

Results

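The p53 target genes described here are Cdkn1a, Mdm2, Bax, Bbc3, Phlda3, Ccng1, Trp53inp1, Zmat3, Aen and Trp53, the last being the gene of the p53 protein itself. These 10 genes were chosen by name and found by symbol among the 35321 gene symbols of a table of read counts, and all 10 were among the 14920 genes with enough counts to be tested. The counts come from polyA RNA of 17 libraries of sorted mouse hematopoietic stem and progenitor cells (HSPC), which are the marrow cells from which blood is renewed. All mice were wild-type C57BL/6J, an inbred strain, and their age is not given in the labels. The control group received phosphate-buffered saline (PBS, 5 libraries, titled day 0). The other groups, of 3 libraries each, were injected into the peritoneum with lipopolysaccharide (LPS, the bacterial endotoxin), either alone or together with a blocking antibody against the IL-10 receptor (IL-10R), and marrow was taken after 24 h or 72 h. The amounts are 5 for LPS and 100 for the antibody, in micrograms by the design text and in milligrams by the sample protocol, a conflict that cannot be settled here. No group received the antibody without LPS, and no label says whether a library is 1 mouse or a pool, so p-values measure only the spread between these libraries, which may be partly technical.

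p53 is a transcription factor held at a low level by the ubiquitin ligase Mdm2, which is itself a p53 target, so the pair forms a feedback loop. DNA damage, faulty ribosome assembly or oncogene activity frees p53, which then switches on genes that stop the cell cycle (Cdkn1a, the p21 inhibitor of cyclin-dependent kinases), promote apoptosis (Bax, Bbc3, Phlda3, Aen) or tune the response (Ccng1, Trp53inp1, Zmat3). In hematopoietic stem cells the pathway is known for its part in quiescence and in the loss of cells after irradiation. p53 is controlled mainly at the level of the protein, so the level of Trp53 RNA is not a measure of its activity.

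Stretches before the starts of 4 genes are printed because p53 binds a DNA element made of a pair of decamers, and because Bax, Ccng1 and Aen were called as higher 24 h after LPS whereas Cdkn1a was not. They are RefSeq sequences of build GRCm38.p6, 5′ to 3′ on the gene's strand and without bases that GENCODE M21 places inside the gene, except for Aen. Capitals mark matches to the p53 consensus.
Bax (chr7:45466899-45467148, minus strand): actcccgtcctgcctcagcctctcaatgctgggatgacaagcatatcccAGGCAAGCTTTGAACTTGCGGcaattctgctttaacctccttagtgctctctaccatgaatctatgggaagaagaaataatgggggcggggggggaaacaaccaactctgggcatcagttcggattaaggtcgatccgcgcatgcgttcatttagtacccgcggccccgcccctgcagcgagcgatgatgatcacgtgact
Ccng1 (chr11:40755312-40755536, minus strand): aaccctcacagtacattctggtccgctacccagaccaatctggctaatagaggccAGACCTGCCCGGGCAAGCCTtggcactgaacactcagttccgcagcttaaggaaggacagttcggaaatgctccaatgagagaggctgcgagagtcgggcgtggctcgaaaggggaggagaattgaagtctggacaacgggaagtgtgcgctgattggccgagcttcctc
Aen (chr7:78895932-78895961, plus strand): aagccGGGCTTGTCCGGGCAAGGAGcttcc
Cdkn1a (chr17:29090729-29090975, plus strand): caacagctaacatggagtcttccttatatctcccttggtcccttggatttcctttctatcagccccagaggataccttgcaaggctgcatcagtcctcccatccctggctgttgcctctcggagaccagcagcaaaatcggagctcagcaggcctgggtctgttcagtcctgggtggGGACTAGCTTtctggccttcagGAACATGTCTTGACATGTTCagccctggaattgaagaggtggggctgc
The windows of 250 bases before each RefSeq start were searched for the p53 decamer by its consensus with no mismatch, and for a pair of decamers 0 or 1 bases apart with at most 3 mismatches among 20 letters and the C and G of each core kept. The consensus is its own reverse complement, so both strands are covered, and a pair can hold a decamer. The pairs in Ccng1 and in Cdkn1a each had 1 mismatch, the pair in Bax had 2 and the pair in Aen had 3. In Cdkn1a the capitals nearer the 5′ end are a lone decamer, and the window of the gene's other RefSeq start held no match. The pair in Aen lies inside the gene as GENCODE M21 draws it, so only the site and 5 bases on each side are shown.

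Of the 10 genes, 8 had entries in the promoter table, with 12 windows. A decamer was found in 6 of the 12 windows and a pair in 6 of 12, against 7.13% and 2.28% of all 32851 windows of this length. The windows with a pair were those of Bax, Ccng1 and Trp53 and 1 window each of Aen, Cdkn1a and Bbc3. Mdm2 had a decamer with no pair, and Phlda3 had neither. The genes were chosen as p53 targets, and some windows of Bbc3 and of Aen overlap each other, so these shares are no test of enrichment. A match describes letters and does not show that p53 was bound in these cells.

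Totals ran from 10516722 to 16006001 counts per library. LPS library 1 at 24 h stood apart, with a composition factor (TMM) of 0.799 against 0.947 to 1.12 in the other 16 libraries. Levels are given in CPM, counts scaled to a common library total after that correction. The progenitor markers Kit (228 to 589 CPM) and Cd34 (234 to 848 CPM) were present in every library. Antibody libraries numbered 1 stood apart in 12 interferon-induced genes, whose summed level was 3238 CPM at 24 h and 4502 CPM at 72 h. The sum was 783 and 345 CPM in the other antibody libraries at 24 h, 486 and 347 CPM at 72 h, and 404 to 643 CPM in PBS. After LPS alone it was 601 to 967 CPM at 24 h and 409 to 571 CPM at 72 h.

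In PBS-treated mice Trp53 had the highest level of the 10 genes per kilobase of merged exons, at 57.2 ± 4.89 CPM per kb (SD, n = 5). Bax followed at 30.1 ± 5.44 CPM per kb (SD, n = 5), then Ccng1 at 20.2 ± 1.73 and Mdm2 at 11.2 ± 0.591 CPM per kb. Each of these 4 lay apart from the next by more than their SDs. Below them, Trp53inp1 (7.54 ± 2.11 CPM per kb) lay within 1 SD of Aen (8.27 ± 1.12 CPM per kb), and it differed from Cdkn1a (5.19 ± 0.772 CPM per kb) by more than either SD but by less than their sum. The apoptosis genes Bbc3 (2.15 ± 0.28 CPM per kb) and Phlda3 (1.97 ± 0.594 CPM per kb) also lay within their spread of each other. Zmat3, which encodes an RNA-binding protein, was lowest at 0.515 ± 0.189 CPM per kb. The lowest count of any of the 10 genes in a library was 19, for Phlda3, and counting error weighs most on Phlda3, Bbc3 and Zmat3.

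**Figure D1:**
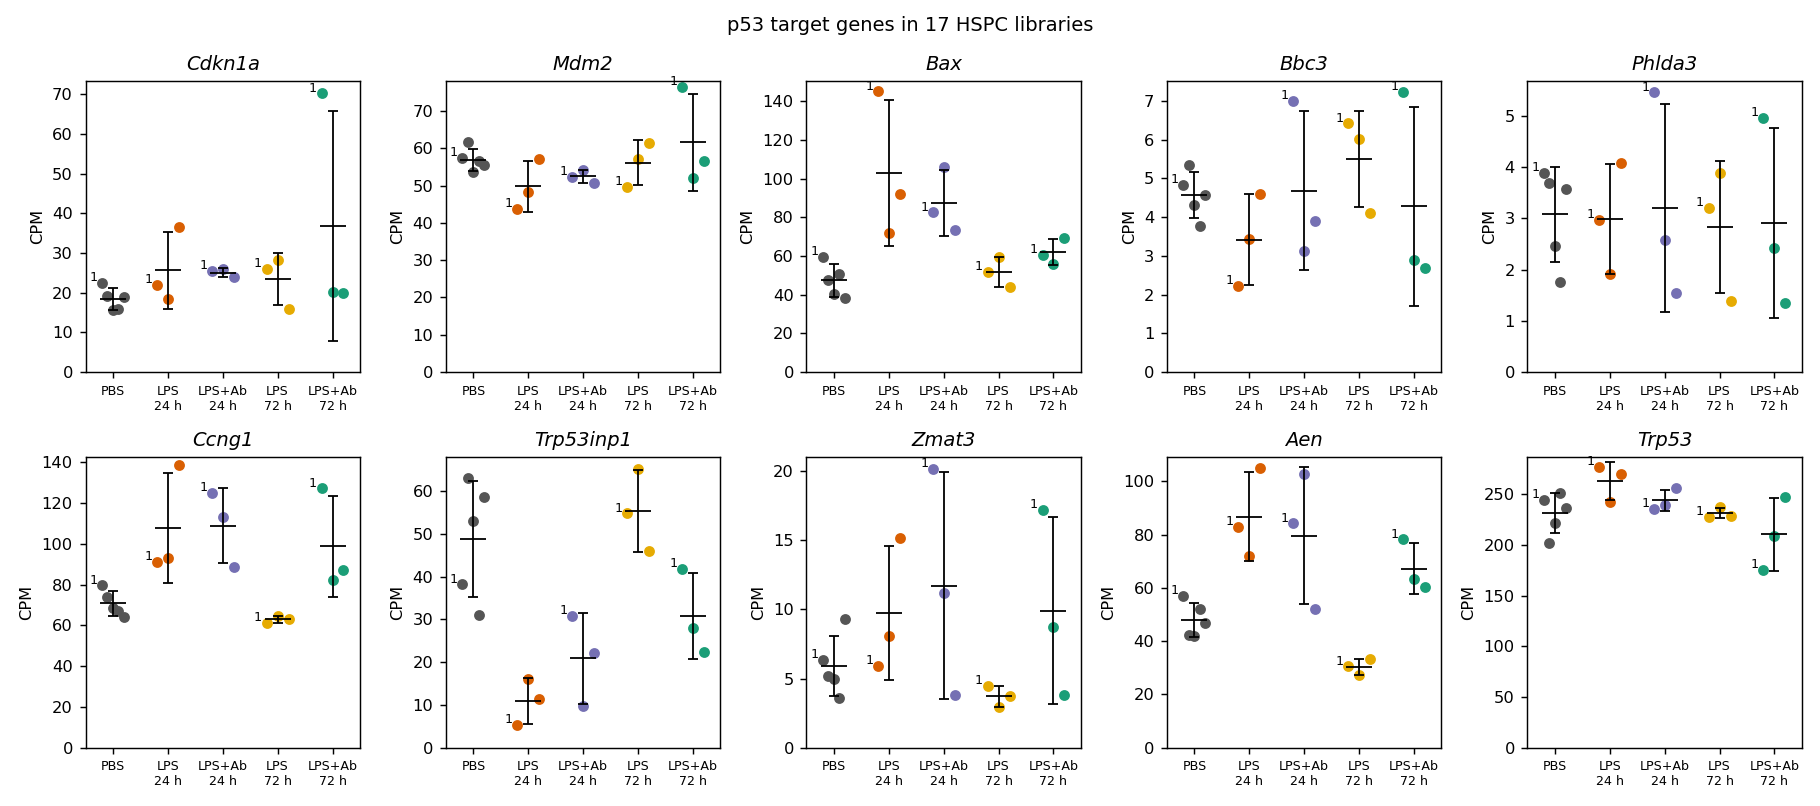
Level of each p53 target gene in CPM (vertical axes from 0) in the 5 groups. Each point is a library, a 1 marks the library numbered 1, and the bars give the mean ± SD. Bax, Ccng1 and Aen sit above PBS in every library of LPS alone at 24 h, Trp53inp1 sits below it, and Cdkn1a has 1 library at 70.2 CPM.

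At 24 h after LPS alone, Bax, Ccng1 and Aen rose and Trp53inp1 fell relative to PBS, while Cdkn1a, Mdm2, Bbc3, Phlda3, Zmat3 and Trp53 did not pass the test. Thus 4 of 10 genes were called (3 higher, 1 lower) by edgeR's quasi-likelihood test, with Benjamini-Hochberg adjusted p below 0.05. Of all tested genes 37.6% were called, 19.1% higher and 18.5% lower, so the count is near the background. These values come from the fit without the replicate number. With that number as a block, 3 of the 10 genes were called (2 higher, 1 lower). Over all tested genes the block lowered the count from 5616 to 4163. The 4 genes called without the block had groups that did not overlap, as did 42.8% of all tested genes. The median log2 change of the 10 genes was 0.33, against -0.03 over all tested genes.

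Bax encodes the protein that permeabilizes the outer mitochondrial membrane in apoptosis (chromosome 7, 45461697 to 45466898, GRCm38). Its level was 59.6, 47.8, 40.1, 50.9 and 38.5 CPM in the PBS libraries and 145, 71.8 and 92.1 CPM in the LPS libraries at 24 h. Each LPS library was above every PBS library, and library 1, the one that stood apart in composition, was highest. The log2 change was 1.12, SE 0.202, adjusted p = 0.00107, and without LPS library 1 it was 0.81, adjusted p = 0.00902. The gene model Gm45808 shares 192 exon bases with Bax on the same strand, so reads there cannot be assigned with certainty. Gm45808 was at 19.3 to 27.5 CPM in PBS and 30.6 to 55.5 CPM after LPS (log2 change 0.83, SE 0.171, adjusted p = 0.00211).

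Aen encodes a nuclease that takes part in apoptosis (chromosome 7, 78895854 to 78911209). It was at 57, 42.5, 41.8, 52 and 46.7 CPM in PBS and at 83, 72.2 and 105 CPM in the LPS libraries at 24 h, again with no overlap (log2 change 0.85, SE 0.186, adjusted p = 0.0029). Ccng1 encodes cyclin G1, a partner of a phosphatase that acts on Mdm2 (chromosome 11, 40748552 to 40755311). It was at 79.7, 74.1, 68.8, 67.3 and 64.3 CPM in PBS and at 91, 93.3 and 139 CPM after LPS. All 3 LPS libraries were above PBS, and library 3 was well above the other two. The log2 change was 0.61, SE 0.164, adjusted p = 0.00986. Without LPS library 3 it was 0.39, adjusted p = 0.087, and with the replicate block 0.55, adjusted p = 0.0631, so the Ccng1 call was lost in both settings.

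Trp53inp1 encodes a nuclear protein that also takes part in autophagy (chromosome 4, 11156431 to 11174379). Its level was 38.2, 63.2, 53.1, 31.1 and 58.5 CPM in PBS and 5.38, 16 and 11.4 CPM after LPS. Every LPS library was under every PBS library. The log2 change was -2.15, SE 0.396, adjusted p = 0.00118, and without LPS library 1 it was -1.82, adjusted p = 0.0092.

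Cdkn1a and Mdm2, often used as readouts of p53 activity, did not pass at 24 h. Cdkn1a (chromosome 17, 29090976 to 29100727) was at 22.4, 19.2, 15.7, 16 and 19 CPM in PBS and at 21.9, 18.4 and 36.7 CPM after LPS. LPS library 3 alone was above PBS (log2 change 0.48, SE 0.352, adjusted p = 0.30). Mdm2 (chromosome 10, 117688875 to 117710758) was at 57.4, 61.6, 53.5, 56.7 and 55.4 CPM in PBS and at 43.8, 48.2 and 57.2 CPM after LPS, with overlapping groups (log2 change -0.19, SE 0.128, adjusted p = 0.248; without LPS library 1 -0.10, adjusted p = 0.659). Bbc3, which encodes the apoptosis inducer PUMA (chromosome 7, 16308393 to 16318205), was at 3.76 to 5.35 CPM in PBS and 2.22, 3.43 and 4.59 CPM after LPS (log2 change -0.41, SE 0.353, adjusted p = 0.384; without LPS library 1 -0.17, adjusted p = 0.785). Zmat3 (chromosome 3, 32334792 to 32366014) was at 3.57 to 9.33 CPM in PBS and 5.93, 8.1 and 15.2 CPM after LPS (log2 change 0.73, SE 0.494, adjusted p = 0.258). Their groups overlapped as well. Phlda3, which encodes a repressor of Akt signalling (chromosome 1, 135766119 to 135769136), was at 1.75 to 3.89 CPM in PBS and 2.97, 1.92 and 4.08 CPM after LPS. Trp53 (chromosome 11, 69580359 to 69591873) was at 202 to 251 CPM in PBS and 277, 242 and 270.3 CPM after LPS (log2 change 0.19, SE 0.111, adjusted p = 0.195).

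Markers of other cell types moved in the same comparison. Of the macrophage markers 8 of 8 were lower after LPS, with a summed level of 344 to 2318 CPM in PBS and 123 to 143 CPM at 24 h, and none was at 0 in these libraries. Of the B-lymphoid markers 3 of 7 tested were lower, with sums of 375 to 1326 CPM and 71.1 to 91.6 CPM. Of the T and NK cell markers 2 of 8 were lower, with overlapping sums (90.3 to 277 CPM and 108 to 274 CPM). Of the stem and progenitor markers 6 of 10 were lower and none higher (1709 to 2472 CPM and 1081 to 1229 CPM). Of 8 erythroid and 8 neutrophil markers none was called by edgeR. The erythroid sums were 168 to 326 CPM and 293 to 649 CPM. The log2 changes of the erythroid markers went both ways, from -1.95 (Hbb-bs) to 1.71 (Car1), with a median of 1.29. Fewer cells of a type and less RNA per cell cannot be told apart in bulk libraries. The part of these shifts in the changes of Bax, Aen, Ccng1 and Trp53inp1 was not tested.

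**Figure D2:**
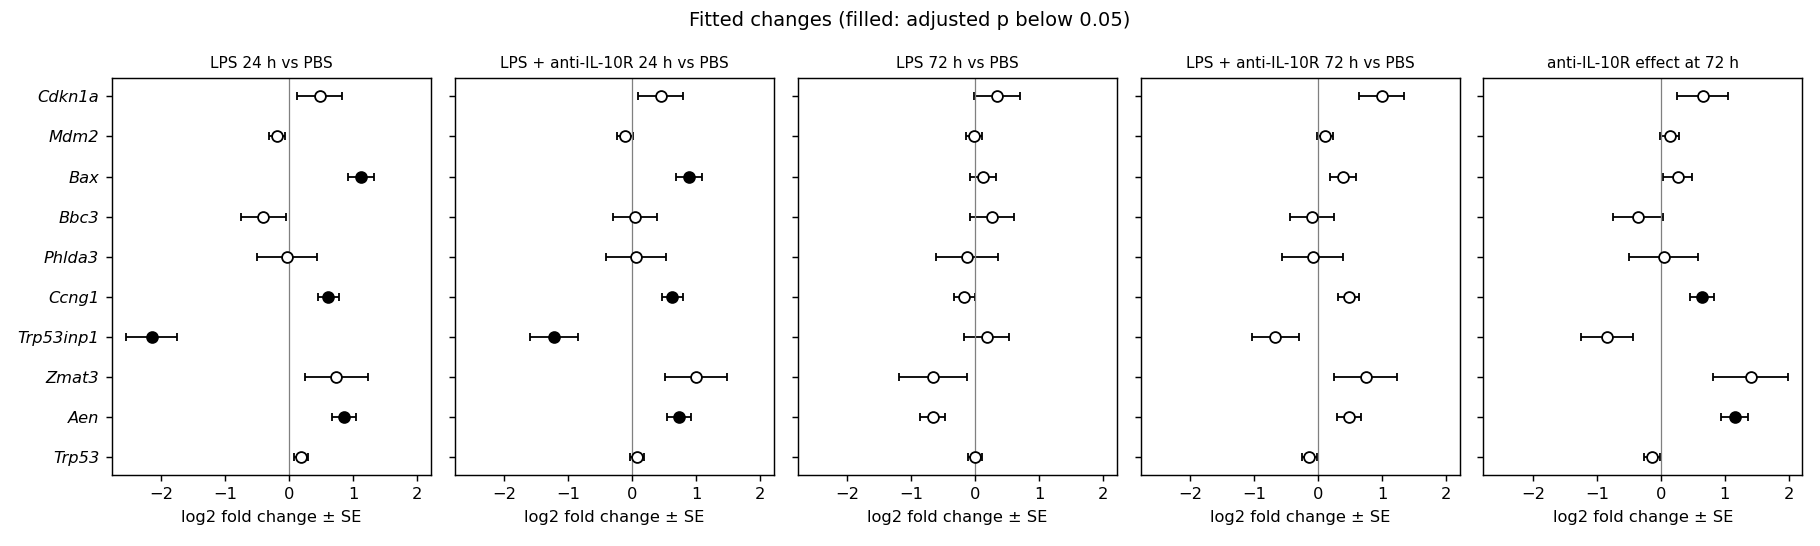
Log2 fold change (horizontal axes, points, with bars for the SE) of the 10 genes in 5 comparisons from 1 edgeR fit, with filled points for an adjusted p below 0.05. At 24 h Bax, Ccng1 and Aen lie to the right of 0 and Trp53inp1 to the left, with and without the antibody. At 72 h without antibody no point is filled.

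With the antibody, Bax, Ccng1 and Aen were again called as higher than in PBS at 24 h and Trp53inp1 as lower. These were 4 of 10 genes, while 24.2% of all tested genes were called (11.7% higher, 12.5% lower). The same PBS libraries serve both comparisons. Bax was at 82.5, 106 and 73.5 CPM, all above PBS (log2 change 0.88, SE 0.203, adjusted p = 0.00899). Aen was at 84.2, 103 and 52 CPM, with library 3 inside the PBS range (log2 change 0.73, SE 0.186, adjusted p = 0.0139). Ccng1 was at 125, 113 and 88.6 CPM, all above PBS (log2 change 0.62, SE 0.164, adjusted p = 0.0161). Trp53inp1 was at 30.9, 9.76 and 22.1 CPM, all under PBS (log2 change -1.22, SE 0.375, adjusted p = 0.0295). Groups did not overlap for Bax, Ccng1, Trp53inp1 and Cdkn1a, against 31% of all tested genes.

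These calls depended in part on single libraries. Bax and Aen were each called in 7 of the 8 fits that left out 1 library, and Ccng1 in 6. Without antibody library 2 at 24 h none of the 4 was called by edgeR (log2 change 0.72, adjusted p = 0.0619 for Bax, 0.51, adjusted p = 0.102 for Aen, 0.59, adjusted p = 0.0669 for Ccng1 and -0.88, adjusted p = 0.132 for Trp53inp1). The count over all tested genes fell too without that library, from 3605 to 877. Trp53inp1 was called in 3 of the 8 fits without a single library (adjusted p from 0.0203 to 0.132). Cdkn1a stood close together at 25.4, 25.9 and 23.9 CPM, each library above the highest PBS library, yet was not called (log2 change 0.44, SE 0.352, adjusted p = 0.372). Zmat3 spread over 20.2, 11.2 and 3.82 CPM (log2 change 1.00, SE 0.491, adjusted p = 0.147; without library 1 0.35, adjusted p = 0.66), and Mdm2 was at 52.4, 54.3 and 50.7 CPM (log2 change -0.12, SE 0.128, adjusted p = 0.521). Of the macrophage markers 6 of 8 were lower in this comparison too (sum 165 to 209.7 CPM). Of the stem and progenitor markers 5 of 10 were lower and 1 higher (1172 to 1444 CPM), and 2 of 7 B-lymphoid (67.3 to 161 CPM) and 1 of 8 T and NK cell markers (112 to 216 CPM) were lower. The part of these shifts was not tested.

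LPS with the antibody was set directly against LPS alone at 24 h, and 0 of the 10 genes were called, as were 0% of all tested genes. By unadjusted p below 0.05, 1.83% of all tested genes passed, and Trp53inp1 alone of the 10, while DESeq2's Wald test called none of the 10. Trp53inp1 was at 5.38, 16 and 11.4 CPM without and 30.9, 9.76 and 22.1 CPM with the antibody, and the groups overlapped (log2 difference 0.93, SE 0.413, adjusted p = 1.0). Without antibody library 1 the difference was 0.54, adjusted p = 1.0. None of the 10 genes had groups apart, against 3.15% of all tested genes. The lowest difference was that of Bax (-0.24, SE 0.23, adjusted p = 1.0), and its sign turned without LPS library 1 (0.11, adjusted p = 1.0).

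At 72 h after LPS alone, 0 of the 10 genes were called against PBS, and 0.0201% of all tested genes were called. By unadjusted p below 0.05, 11.4% of all tested genes passed, and Aen alone of the 10, while DESeq2's Wald test called none of the 10. Aen was at 30.5, 27.1 and 33.1 CPM, each under the lowest PBS library, where it had been above PBS at 24 h. It was the only gene of the 10 whose groups did not overlap, against 12% of all tested genes. Its log2 change was -0.67, SE 0.196, adjusted p = 0.231, and voom with sample quality weights called it (-0.72, adjusted p = 0.0159). Over all tested genes voom called 2170 in this comparison. Cdkn1a had the highest value, at 26, 28.2 and 15.9 CPM with groups that overlapped (log2 change 0.34, SE 0.354, adjusted p = 0.731).

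Between 24 h and 72 h after LPS alone, the genes called at 24 h moved back. Bax (log2 change -0.99, SE 0.233, adjusted p = 0.0051), Ccng1 (-0.77, SE 0.188, adjusted p = 0.0062) and Aen (-1.52, SE 0.217, adjusted p = 0.000265) fell, and Trp53inp1 rose (2.33, SE 0.423, adjusted p = 0.00105). Thus 4 of 10 genes were called (1 higher, 3 lower), against 31.1% of all tested genes (14.7% higher, 16.4% lower). The 24 h LPS libraries enter this comparison and that with PBS. At 72 h Bax was at 52, 59.4 and 43.8 CPM and Ccng1 at 61.1, 64.6 and 63.4 CPM, each library under all 24 h libraries. Trp53inp1 was at 54.8, 65.1 and 45.9 CPM, all above the 24 h libraries. Zmat3 was at 4.49, 2.96 and 3.73 CPM, under all 24 h libraries, but was not called (-1.39, SE 0.581, adjusted p = 0.0802). With Trp53 and Aen this made 6 of 10 genes without overlap, against 45.4% of all tested genes. All 4 calls held in each of the 6 fits that left out 1 library, and without LPS library 1 at 24 h the change of Bax was -0.65, adjusted p = 0.0334. Of the stem and progenitor markers 6 of 10 were higher at 72 h (1812 to 2356 CPM, against 1081 to 1229 CPM at 24 h), and 3 of 8 erythroid markers were lower (2.78 to 102 CPM, against 293 to 649 CPM). A marker each of macrophages (1 of 8), B-lymphoid cells (1 of 7) and T and NK cells (1 of 8) was higher. The part of these shifts was not tested.

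With the antibody no change between 24 h and 72 h was called by edgeR, in 0 of the 10 genes and 0% of all tested genes. By unadjusted p below 0.05, 4.26% of all tested genes passed, and Bax alone of the 10, while DESeq2's Wald test called none of the 10. The values ran from that of Bax (-0.50, SE 0.231, adjusted p = 0.918) to that of Trp53inp1 (0.56, SE 0.405, adjusted p = 0.918), which was 0.95, adjusted p = 0.74 without library 1 at 24 h and 0.27, adjusted p = 0.942 without library 1 at 72 h. Bax alone had groups apart, against 9.26% of all tested genes. A change that missed the threshold is not shown to be absent.

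At 72 h, Aen and Ccng1 were higher with the antibody than after LPS alone, so 2 of 10 genes were called, against 15.1% of all tested genes (8.64% higher, 6.48% lower). Aen was at 78.2, 63.3 and 60.2 CPM with and 30.5, 27.1 and 33.1 CPM without the antibody (log2 difference 1.15, SE 0.216, adjusted p = 0.00407). It was called in all 6 fits that left out 1 library (log2 difference from 1.07 to 1.26). Ccng1 was at 127, 82.3 and 87.1 CPM with and 61.1, 64.6 and 63.4 CPM without the antibody (log2 difference 0.65, SE 0.188, adjusted p = 0.0304). The Ccng1 call was lost without antibody library 1 (0.47, adjusted p = 0.119) and without LPS library 1, 2 or 3 (adjusted p = 0.108, 0.0751 and 0.0503). Trp53inp1 was at 41.9, 28 and 22.5 CPM with the antibody, under all 3 LPS libraries, but was not called (-0.84, SE 0.403, adjusted p = 0.158). Aen, Ccng1 and Trp53inp1 were the 3 genes without overlap, against 33.2% of all tested genes. Zmat3 (1.40, SE 0.582, adjusted p = 0.109) and Cdkn1a (0.65, SE 0.399, adjusted p = 0.267) were not called, and without antibody library 1 the difference of Zmat3 was 0.78, adjusted p = 0.423. T and NK cell markers were lower with the antibody in 2 of 8 cases and a macrophage marker in 1 of 8 (Csf1r, -1.11, SE 0.301, adjusted p = 0.0229), as was the progenitor marker Cd34 (-0.78, SE 0.243, adjusted p = 0.042), 1 of 10 stem and progenitor markers. The median log2 difference of the 8 macrophage markers was 1.89, opposite in direction to that of Csf1r. Csf1r and Cd34 were named after their values were seen, and the part of these shifts was not tested.

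The interaction tested whether the antibody effect at 72 h differed from that at 24 h. Aen passed (difference of the log2 effects 1.27, SE 0.301, adjusted p = 0.025), which made 1 of 10 genes, against 6.35% of all tested genes. Trp53inp1 (-1.77, SE 0.577, adjusted p = 0.0759) and Ccng1 (0.63, SE 0.264, adjusted p = 0.154) did not. The Aen call held in 8 of 12 fits without a library. It was lost without LPS library 3 at 24 h (adjusted p = 0.0547), antibody library 3 at 24 h (0.0506), LPS library 1 at 72 h (0.0663) or LPS library 2 at 72 h (0.0606).

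LPS with antibody at 72 h gave 0 of 10 calls against PBS, while 13.2% of all tested genes were called. By unadjusted p below 0.05, 31.7% of all tested genes passed, and Cdkn1a, Ccng1 and Aen of the 10. DESeq2's Wald test called Cdkn1a and Ccng1, and 2917 of all tested genes. Ccng1 (0.48, SE 0.165, adjusted p = 0.0615) and Aen (0.49, SE 0.187, adjusted p = 0.0893) had every antibody library above every PBS library, against 26.9% of all tested genes without overlap. Zmat3 (0.75, SE 0.496, adjusted p = 0.317) and Trp53inp1 (-0.66, SE 0.366, adjusted p = 0.223) overlapped PBS. Without antibody library 1 the change of Zmat3 was 0.11, adjusted p = 0.915 and that of Ccng1 0.29, adjusted p = 0.283. Of the T and NK cell markers 4 of 8 were lower than in PBS, of the macrophage markers 2 of 8 and of the stem and progenitor markers 2 of 10. Of the erythroid markers 1 of 8 was lower (Hbb-bs, -4.13, SE 1.18, adjusted p = 0.0342), while the median log2 change of the 8 was 0.22. The part of these shifts was not tested.

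Cdkn1a was high in 1 library of that group. It stood at 70.2 CPM (835 counts) in antibody library 1 at 72 h and at 20.2 and 19.9 CPM in the other two, while the 16 libraries other than library 1 ranged from 15.7 to 36.7 CPM with a median of 21 CPM. The log2 change from PBS was 1.00, SE 0.348, adjusted p = 0.0663. Without library 1 it was 0.15, adjusted p = 0.731, and the log2 difference from LPS alone at 72 h became -0.18, adjusted p = 0.733. The raised group value of Cdkn1a therefore rests on that library.

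For most of the other targets that library was also the highest of its group, though for fewer the highest of all 17 libraries. It was the highest of its group for 8 of the 10 genes, against 38.3% of all tested genes, and among the 3 highest of all 17 libraries for 6 of 10, against 24.1%. It held the highest value of the 17 for Cdkn1a, Mdm2 and Bbc3, 3 of 10, against 12% of all tested genes. The library was singled out for its Cdkn1a level, so Cdkn1a is in these counts by choice. Mdm2 was at 76.4 CPM there, against 43.8 to 61.6 CPM in the other 16 libraries. Relative to the mean of the other two libraries of the group, the ratio was 3.5 for Cdkn1a, 2.74 for Zmat3 (17.2 CPM), 2.63 for Phlda3 (4.96 CPM) and 2.59 for Bbc3 (7.23 CPM). It was lower for Trp53inp1 (1.66), Ccng1 (1.5), Mdm2 (1.41) and Aen (1.27). Counted from the highest of the 17 libraries, this library ranked 5 for Aen and 7 for Trp53inp1. Trp53inp1 was at 41.9 CPM there, under its PBS mean of 48.8 CPM.

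Bax and Trp53 did not share this pattern. Bax was at 60.7 CPM in the library, 0.971 times the mean of the other two of its group. Trp53 RNA was at 176 CPM, the lowest of the 17 libraries, where the other 16 ranged from 202 to 277 CPM. Of all tested genes 11.6% had their lowest value there.

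**Figure D3:**
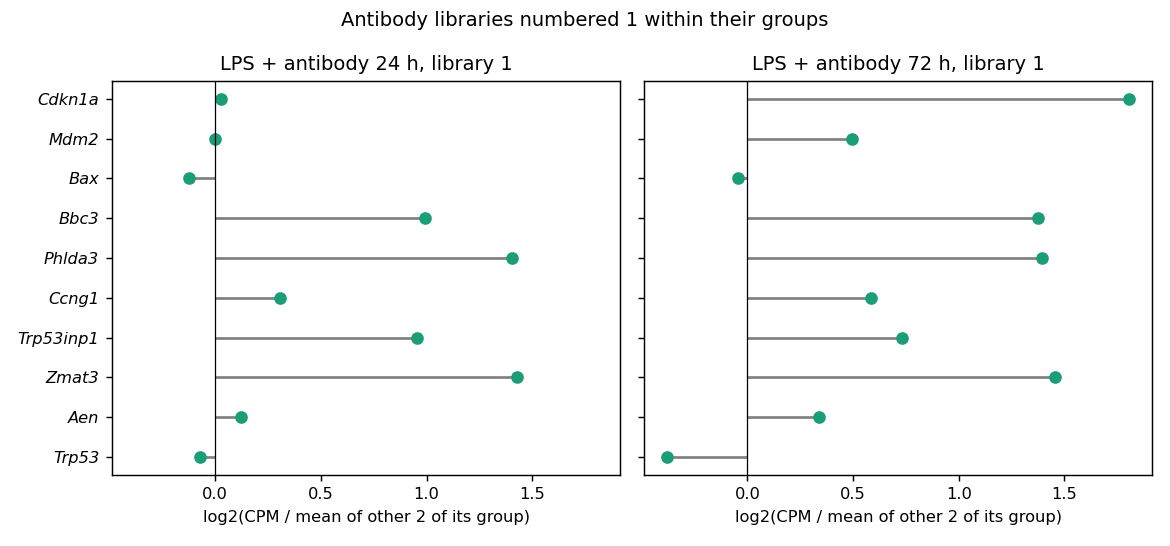
Log2 ratio of the CPM in the antibody library numbered 1 to the mean of the other 2 libraries of its group (horizontal axes) for each gene, at 24 h (left) and 72 h (right). Bbc3, Phlda3 and Zmat3 lie to the right at both times, Cdkn1a (3.5 times) at 72 h but near 0 at 24 h, and Bax near 0 at both.

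The antibody library numbered 1 at 24 h showed part of this pattern. Phlda3 (5.46 CPM, 2.65 times the mean of the other two) and Zmat3 (20.2 CPM, 2.69 times) had their highest values of all 17 libraries there. Bbc3 was at 7.0 CPM (1.99 times) and Trp53inp1 at 30.9 CPM (1.94 times). Cdkn1a was at 25.4 CPM (1.02 times) and Mdm2 at 52.4 CPM (0.998 times). This library was the highest of its group for 5 of the 10 genes, against 36.9% of all tested genes, and among the 3 highest of 17 for 5 of 10, against 20.4%. LPS library 1 was the highest of its group for 2 of 10 genes at 24 h (39.9% of all tested genes) and for 2 of 10 at 72 h (35.4%). It was among the 3 highest of 17 for 2 of 10 at 24 h (30.2%) and 1 of 10 at 72 h (22.8%). The comparison of libraries numbered 1 was added after their values had been seen.

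Both antibody libraries numbered 1 were those with the high interferon sums, led by Gbp2 at 914 CPM (24 h) and 1437 CPM (72 h). Cxcl10, a chemokine induced by interferon, was at 55.1 and 429 CPM. In the library at 72 h the neutrophil markers also stood lower (median ratio to the other libraries of its group 0.245 over 8 genes). The erythroid markers stood higher there (8.24, 8 genes). The median ratio of the 8 macrophage markers was 0.247. Their sum was 186 CPM in that library, against 409 CPM in antibody library 2 and 175 CPM in antibody library 3 at 72 h. At 24 h antibody library 1 also had a lower neutrophil sum than libraries 2 and 3 (4740 CPM, against 11037 and 12412 CPM). Its erythroid sum was higher (1509 CPM, against 341 and 15.2 CPM). Its macrophage sum was higher too (209.7 CPM, against 165 and 174 CPM). The part of these differences in the levels of the p53 targets was not tested.

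**Figure D4:**
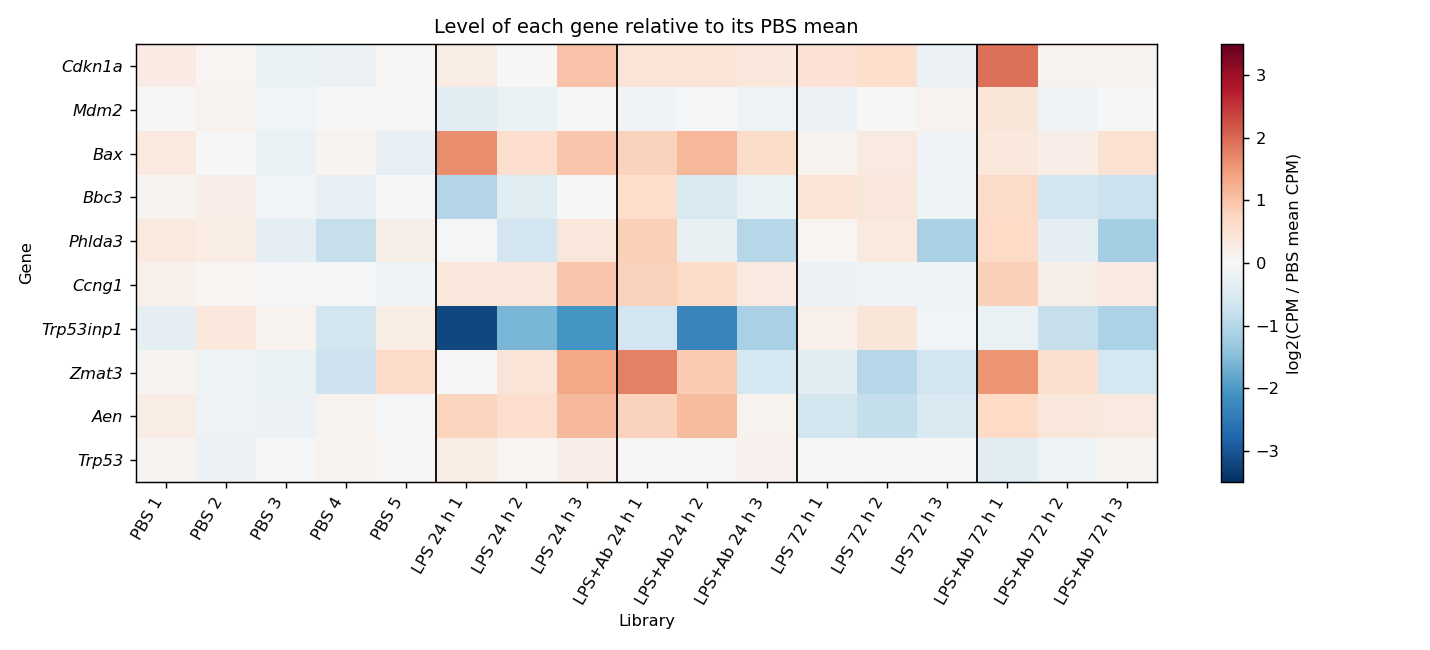
Level of each gene (rows) in each library (columns) as the log2 ratio of its CPM to its mean in the PBS libraries, red above and blue below, with black lines between groups and LPS+Ab for LPS with the antibody. The column of antibody library 1 at 72 h is red for Cdkn1a and Zmat3 and pale for Bax, and Trp53inp1 is blue in every 24 h library.

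The 5 genes whose profile over the 17 libraries lay nearest to that of Cdkn1a were Nfkb2, Casp4, AK157302, 1700023B13Rik and Ift57. Nearness was the root-mean-square difference of log2 CPM, each gene centred on its own mean. It was 0.30 for Nfkb2, a subunit of NF-kB, and 0.31 for Casp4, a caspase of innate immunity, against a median of 0.62 over all other tested genes. None of the 5 was among the 10 targets. Like Cdkn1a, Nfkb2 (74.5, 20.6 and 28.7 CPM) and Casp4 (56.2, 21.1 and 27 CPM) were highest in antibody library 1 at 72 h. The genes were picked for nearness to Cdkn1a over these same libraries, so a shared peak there follows from the choice.

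A list of 30 other genes known as p53 targets was read from the same fit, and all 30 were tested. After LPS at 24 h, 14 of the 30 were called, 5 higher and 9 lower, with a median log2 change of -0.05. Of all tested genes 37.6% were called (19.1% higher, 18.5% lower). With the replicate block the count was 12 (6 higher, 6 lower), and without LPS library 1 it was 9 (4 higher, 5 lower). Over all tested genes the count fell too, from 5616 to 4163 with the block and to 3361 without that library. Pmaip1, which encodes the apoptosis inducer NOXA, stood at 4.48 ± 1.33 CPM in PBS (SD, n = 5) and at 13.7 ± 0.684 CPM after LPS (SD, n = 3), and rose (log2 change 1.62, SE 0.303, adjusted p = 0.00128). Sulf2 (-1.83, SE 0.444, adjusted p = 0.00532) and Plk2, a stress-induced kinase gene (-2.20, SE 0.724, adjusted p = 0.0264), fell. The Plk2 call was lost with the replicate block (-2.05, adjusted p = 0.0762) and without LPS library 1 (-1.90, adjusted p = 0.114), LPS library 2 (-2.10, adjusted p = 0.0763) or PBS library 5 (-2.08, adjusted p = 0.052). Gdf15, which encodes a secreted stress cytokine, had 9 to 38 counts in the PBS libraries and 1 or 2 in the LPS libraries, and was called as lower (adjusted p = 0.00711). Further called genes, named after their values were seen, were Tigar, a regulator of glycolysis (1.30, SE 0.243, adjusted p = 0.00125), and Rps27l (1.08, SE 0.215, adjusted p = 0.00183; without LPS library 1 0.67, adjusted p = 0.0155) among those that rose, and Btg2, an antiproliferative gene (-1.56, SE 0.227, adjusted p = 0.000487), and Sesn1, which restrains mTORC1 (-1.37, SE 0.234, adjusted p = 0.000774), among those that fell.

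With the antibody at 24 h, 9 of the 30 were called against PBS (4 higher, 5 lower), against 24.2% of all tested genes (11.7% higher, 12.5% lower). Without antibody library 2 the count was 4, and over all tested genes it fell from 3605 to 877. At 72 h with the antibody 10 of the 30 were called against PBS, 5 higher (6.81% of all tested genes) and 5 lower (6.43%). That count was 5 without antibody library 1, 4 without antibody library 3 and 6 without PBS library 5. Over all tested genes it fell from 1975 to 693, 583 and 1019, in that order. Pmaip1 stood at 27.6 ± 8.78 CPM there (SD, n = 3), with a log2 change from PBS of 2.63, SE 0.302, adjusted p = 0.00166. Between LPS with and without antibody at 72 h, 9 were called, 4 higher and 5 lower, against 15.1% of all tested genes (8.64% higher, 6.48% lower). The count was 7 without antibody library 1 (2 higher, 5 lower) and 3 without LPS library 1 at 72 h (0 higher, 3 lower). Over all tested genes it fell from 2256 to 1417 and 769. Plk3 (1.70, SE 0.534, adjusted p = 0.0427) and Tigar (1.29, SE 0.283, adjusted p = 0.00839) were higher, and Btg2 (-1.44, SE 0.242, adjusted p = 0.00229) and Dcxr (-1.13, SE 0.218, adjusted p = 0.00459) were lower. The Plk3 call was lost without antibody library 1 (1.09, adjusted p = 0.204), without LPS library 1 (1.87, adjusted p = 0.0986), 2 (1.56, adjusted p = 0.133) or 3 (1.73, adjusted p = 0.0799), and that of Tigar without LPS library 1 (1.15, adjusted p = 0.0535). Against PBS at 72 h of LPS alone edgeR called 0 of the 30, DESeq2 2 and voom 7. Over all 14920 tested genes these tools called 3, 178 and 2170.

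**Figure D5:**
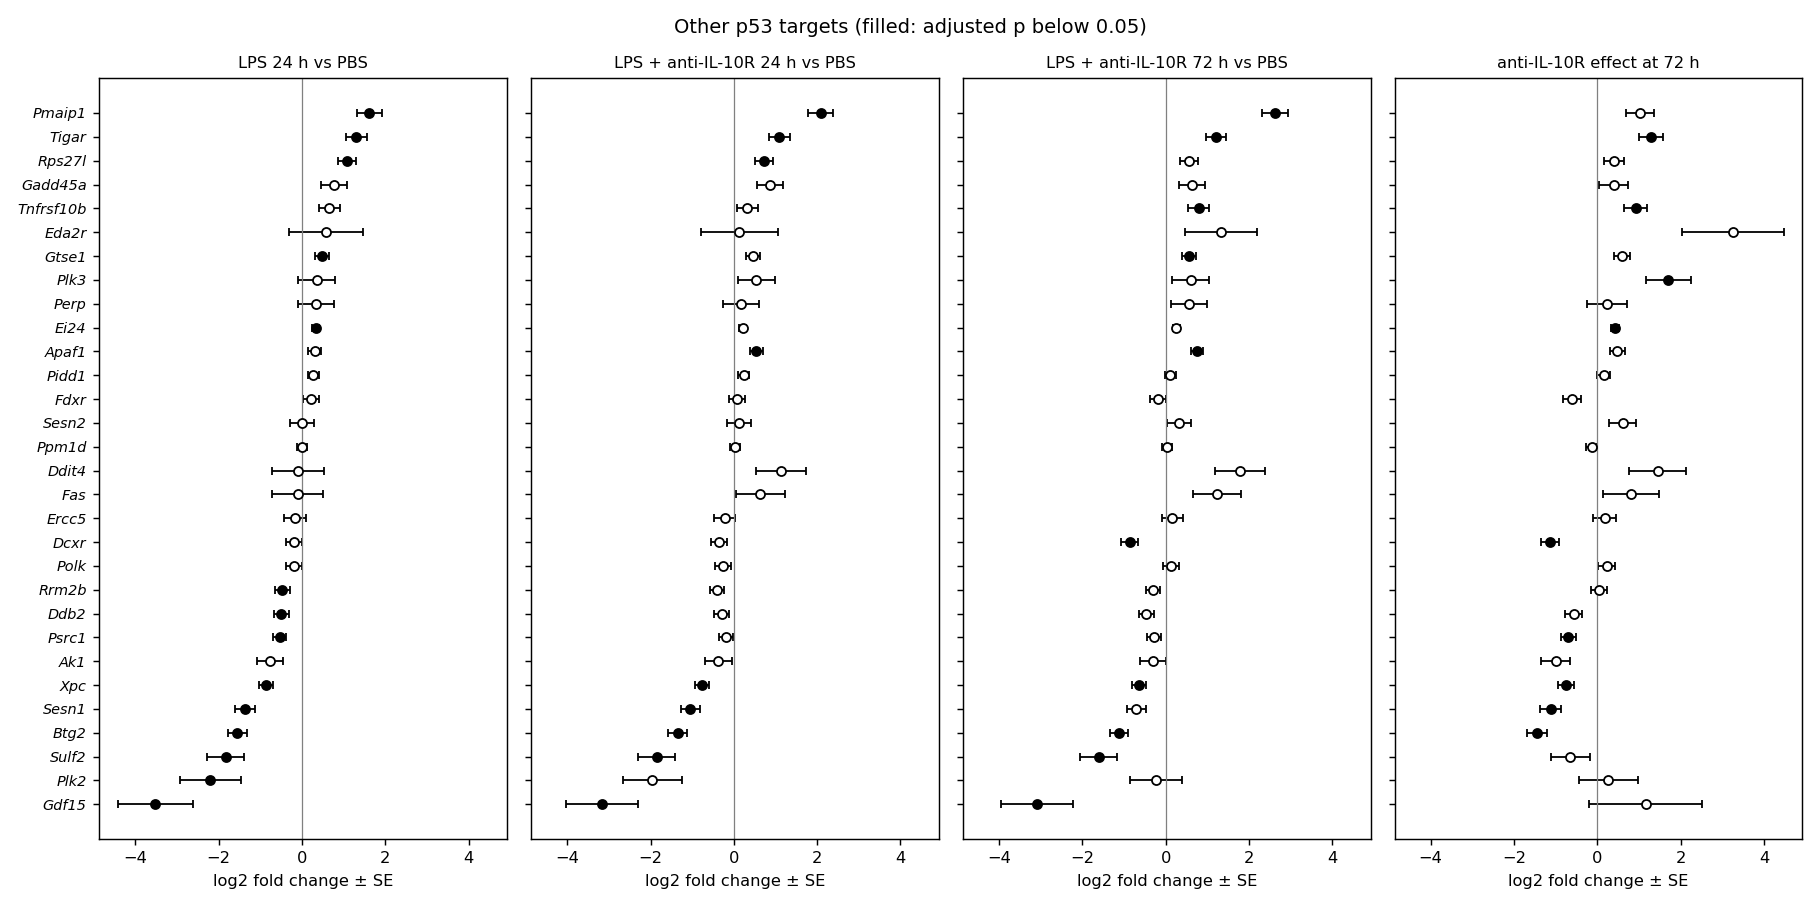
Log2 fold change (horizontal axes, bars for the SE) of 30 other p53 targets in 4 comparisons from the same fit, ordered by the change after LPS at 24 h, with filled points for an adjusted p below 0.05. Pmaip1, Tigar and Rps27l lie on the right and Btg2, Sesn1 and Xpc on the left at 24 h, with 5 called genes to the right of 0 and 9 to the left.

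Antibody library 1 at 72 h held the highest of the 17 values for 11 of these 30 genes, against 12% of all tested genes, and the lowest for 2, against 11.6%. Among the 11, named after their values were seen, were the death receptor gene Fas (6.9 CPM, against at most 4.48 CPM elsewhere), the receptor gene Eda2r (3.62 CPM from 43 counts, against at most 1.66 CPM), and the mTORC1 inhibitor genes Sesn2 (26.3 CPM, against at most 22.1 CPM) and Ddit4 (94.9 CPM, against at most 54.4 CPM). The 2 lowest were the repair gene Xpc (67.4 CPM) and Fdxr (22.6 CPM). The median ratio of this library to the other two of its group was 1.14 over the 30 genes, 1.58 over the 10 genes above and 0.983 over all tested genes.

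Of 17 tested genes that act on the p53 protein, 2 were called after LPS at 24 h (1 higher, 1 lower), against 37.6% of all tested genes. DESeq2 called 4 of them, and 6075 of all tested genes. Usp7, which encodes an enzyme that removes ubiquitin from Mdm2 and p53, rose (0.28, SE 0.0867, adjusted p = 0.0189), and Rchy1, a ubiquitin ligase gene, fell (-0.46, SE 0.156, adjusted p = 0.031). The Usp7 call was lost without LPS library 1 (0.28, adjusted p = 0.0522), the Rchy1 call without LPS library 2 or 3 or PBS library 2 or 5, and both with the replicate block (0.30, adjusted p = 0.0581 and -0.46, adjusted p = 0.0631). Usp7 (0.68, SE 0.0981, adjusted p = 0.00127) and Rchy1 (-0.58, SE 0.172, adjusted p = 0.0341) were also the genes called between LPS with and without antibody at 72 h, where Rchy1 was called in 1 of the 6 fits that left out a library and Usp7 in all 6. The p53 relatives Trp63 and Trp73 had too few counts to be tested. Of 18 cell cycle genes that p21 lowers through the DREAM repressor complex, 5 were called as higher and 0 as lower after LPS at 24 h by edgeR, against 19.1% and 18.5% of all tested genes, with Mybl2 at 1.04, SE 0.153, adjusted p = 0.000487 and Birc5 at 0.69, SE 0.243, adjusted p = 0.0357. Without LPS library 1 the change of Birc5 was 0.22, adjusted p = 0.46, and its call was also lost without PBS library 1, 2 or 5 and with the replicate block. Without LPS library 1 or PBS library 2 the count was 2, without PBS library 5 it was 3, and with upper-quartile factors 3 (2 higher, 1 lower). Over all tested genes the count fell from 5616 to 3361, 4696, 4628 and 5520 in these settings, in that order. In antibody library 1 at 72 h the median ratio of these 18 genes to the other two libraries of the group was 0.793, against 0.983 over all tested genes. Their lowest value of the 17 libraries was there for 3 of the 18, against 11.6% of all tested genes, which is near the background.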

How the data were processed

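RNA of sorted HSPC was measured in 17 libraries of 5 groups. The authors deposited 1 table of raw read counts per gene symbol, whole numbers with no normalization. The submitters' processing notes name build GRCm38, HISAT2 2.2.0, Subread, featureCounts 2.1.1, R 4.3.2 and DESeq2, with no role or order. Annotation, strand setting and treatment of reads that match several genes are not given in the sources used here. Groups and replicate numbers came from the sample titles, and columns from the library names.

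Counts were tested with edgeR 4.0.16 (R 4.3.3) in 1 quasi-likelihood fit of all libraries with 5 group means, TMM scaling and the default low-count filter (minimum 10, total 15), which kept 14920 genes with 99.9% of the counts. Adjusted p-values (Benjamini-Hochberg) are over all tested genes in each of 9 comparisons and come from edgeR unless another tool is named. The SE is the absolute log2 change over the square root of the F statistic. The fit was tested on simulated counts. All 10 genes were named, up to 4 called genes of each other list by size of change, and the 5 nearest to Cdkn1a (log2 CPM, prior count 2). The members and lists were chosen with earlier results of these data known. Positions are those of GENCODE M21 (GRCm38).

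Libraries that share a number deviated together from their group means, with correlations across genes of 0.158 to 0.191 in the 3 pairs of LPS at 24 h and PBS, so this comparison counts as paired. The titles do not say what a number marks, so whether these libraries are paired is not known. Alternatives were other scaling factors, DESeq2 1.42.0, voom of limma 3.58.1, no filter, the compared groups only, the replicate block, leaving out each library and, added after seeing the data, leaving out both 24 h libraries numbered 1, whose library names are written in another style.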

Additional observations from a re-analysis of the deposited data

Results flagged for a closer look

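Each of these genes had an antibody effect at 72 h that differed from that at 24 h by the interaction test of edgeR. The difference of the effects on the log2 scale was 1.27, SE 0.301, adjusted p = 0.025 for Aen. Of the 30 other targets, Tigar (1.5, SE 0.395, adjusted p = 0.0365) and Ei24 (0.54, SE 0.138, adjusted p = 0.0334) had positive differences. Btg2 (-1.65, SE 0.342, adjusted p = 0.0142), Sesn1 (-1.44, SE 0.353, adjusted p = 0.028) and Psrc1 (-1.04, SE 0.257, adjusted p = 0.029) had negative ones. Without both 24 h libraries numbered 1, a setting chosen after seeing the data, none of these genes was called by edgeR (adjusted p = 0.0717 for Aen). Over all tested genes the count fell there from 947 to 127. Of the 5 other targets, Btg2 alone was called without LPS library 1 or antibody library 1 or 3 at 24 h or LPS library 1 or 2 at 72 h, 2 were called without LPS library 3 at 24 h or antibody library 3 at 72 h, and 3 without antibody library 1 at 72 h. In those fits without 1 library, 231 to 754 of all tested genes were called. None of the 10 genes had an outlying PBS library, and groups of 3 were not checked.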

How the results depend on the processing

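Over the log2 changes reported for the 10 genes, 562 values under alternatives kept direction and call, 28 lost a call, 17 gained one and 5 turned sign, and the cause was not tested. The count of the 10 genes called changed as follows, with the count over all tested genes in brackets after the word all. In the main fit that count over all tested genes was 5616 for LPS and 3605 for LPS with antibody at 24 h against PBS. At 72 h it was 3 and 1975. It was 2256 for the antibody effect at 72 h and 947 for the interaction. With voom the count of the 10 was 1 for LPS at 72 h against PBS (Aen, all 2170). It was 4 for the antibody effect at 72 h (all 4433). With DESeq2 it was 2 for LPS with antibody at 72 h against PBS (all 2917) and 2 for the interaction (all 1709). With the compared groups only it was 1 for LPS with antibody at 72 h against PBS (Aen, all 2363). It was 1 there for the antibody effect at 72 h (all 1123) and 0 for the interaction (all 286). With upper-quartile factors it was 1 for the antibody effect at 72 h (all 2283). With the replicate block it was 3 for LPS at 24 h (all 4163) and 1 for LPS with antibody at 24 h (Bax, all 1721). It was 1 with the block for the antibody effect at 72 h (all 1774) and 0 for the interaction (all 333). Without both 24 h libraries numbered 1 it was 0 for the interaction (all 127).

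Leaving out each library in turn gave 3 to 4 genes for LPS at 24 h, 0 to 4 for LPS with antibody at 24 h, 0 to 2 for LPS with antibody at 72 h, 1 to 2 for the antibody effect at 72 h and 0 to 2 for the interaction. Over all tested genes the same fits called 3361 to 5443, 877 to 3420, 583 to 2066, 769 to 2279 and 231 to 1544. The antibody effect on Bax at 24 h turned sign with voom (0.041) and without both 24 h libraries numbered 1 (0.15). It ranged from -0.44 to 0.11 without a library. That on Cdkn1a at 72 h turned with voom (-0.17) and ranged from -0.18 to 0.99. In the other comparisons not every correlation of same-numbered libraries was over 0.1 (-0.365 to 0.723), which does not settle whether they are paired. For LPS with antibody at 72 h against PBS the correlations were 0.148, 0.198 and 0.0701, and 6 of 6 libraries correlated best with their own number, a hint from the data and not from the design. With the block 5 of the 30 other targets were called there, and 374 of all tested genes, against 1975 without the block. Between the antibody groups at 24 h and 72 h they were 0.723, -0.0217 and 0.697 (4 of 6 libraries).

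Upper-quartile factors moved the median log2 change of all tested genes from -0.03 to -0.16 for LPS at 24 h. The share of called genes that were higher went from 50.7% to 36.8% there, 48.3% to 32.5% for LPS with antibody at 24 h and 51.4% to 32.8% at 72 h, 57.1% to 42.4% for the antibody effect at 72 h, 47.2% to 59.2% between 24 h and 72 h of LPS, and 63.5% to 49.7% for the interaction. Depth limits Phlda3, Bbc3 and Zmat3 most, with as few as 19 counts.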
